A study of Mus musculus with 2 samples.

Results

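Wnt signalling genes were read on 2 expression arrays of white fat from mice aged 24 weeks that had been kept on a high-fat diet for 20 weeks. The array labelled Oma1_WT held RNA of control fat and the array labelled Oma1_KO held RNA of Oma1-deficient fat, and both groups shared the age, the tissue and the diet. The Oma1 protein is a peptidase that sits in the inner mitochondrial membrane. Strain, sex, the Oma1 allele and the fat depot are not stated in the labels, nor is whether RNA of several mice was combined. The members were the genes whose only symbol in the platform annotation was Wnt, Fzd, Sfrp, Dkk or Rspo followed by a digit, together with Lrp5, Lrp6, Wif1, Ctnnb1, Axin1, Axin2, Tcf7l1, Tcf7l2 and Lef1. They numbered 51 of the 19938 genes named on the array. The rule used names and no measured value, but it was chosen with earlier results of these data known. It gave 19 Wnt ligands, 10 frizzled receptors, 2 LRP co-receptors, 9 secreted antagonists, 4 R-spondins and 6 genes of the intracellular part of the pathway. The last member, Fzd10os, matched by its name only, since RefSeq lists it as a long non-coding RNA and not as a receptor.

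Wnt ligands are secreted, lipid-modified glycoproteins. A Wnt bound to a frizzled receptor and to Lrp5 or Lrp6 keeps beta-catenin from being degraded, so that it reaches the nucleus and acts with TCF/LEF factors on target genes, while other Wnts act through frizzleds without beta-catenin. Sfrp proteins and Wif1 bind Wnts outside the cell, Dkk proteins bind the LRP co-receptors, and R-spondins raise the amount of frizzled and LRP at the surface. In fat, signalling through beta-catenin is known to hold back the formation of adipocytes from precursor cells, and several Wnts and Sfrps are secreted by fat itself.

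RefSeq promoter sequences of assembly GRCm38.p6 were found for 33 of the 51 members. The 250 bases before the start are shown, 5′ to 3′ on the gene's own strand, for the members in that table with the lowest and the highest difference among those above the intensity filter explained below, and capitals mark CG dinucleotides. The Sfrp5 stretch lies at chr19:42202253-42202502 on the minus strand and the Fzd1 stretch at chr5:4758217-4758466 on the minus strand.
Sfrp5: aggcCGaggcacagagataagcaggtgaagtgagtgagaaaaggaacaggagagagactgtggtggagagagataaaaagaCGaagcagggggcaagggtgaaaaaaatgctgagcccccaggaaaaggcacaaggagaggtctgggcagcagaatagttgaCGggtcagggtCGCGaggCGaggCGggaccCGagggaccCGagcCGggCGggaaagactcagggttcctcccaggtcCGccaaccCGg
Fzd1: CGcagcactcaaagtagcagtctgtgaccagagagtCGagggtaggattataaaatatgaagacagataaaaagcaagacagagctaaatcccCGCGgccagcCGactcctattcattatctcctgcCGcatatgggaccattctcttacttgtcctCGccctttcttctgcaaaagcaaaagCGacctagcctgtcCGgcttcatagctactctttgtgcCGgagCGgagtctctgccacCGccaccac
They hold 13 and 12 CG dinucleotides, against a median of 6 over the same 250 bases of all 32851 listed promoters and of 22 over the 41 listed promoters of members. The core letters of the TCF/LEF motif, CTTTGAT, were then searched on both strands, where the reverse reads ATCAAAG. At least 1 promoter held them in 2 of the 33 members, Wnt11 and Wnt5b, and in 3.72% of all 27025 genes of the table. Windows of 60 bases around them are shown because these were the only matches, with the motif in capitals, from 1 of 2 listed starts of Wnt11 (chr7:98835034-98835093, plus strand) and 1 of 3 of Wnt5b (chr6:119449425-119449484, minus strand).
Wnt11: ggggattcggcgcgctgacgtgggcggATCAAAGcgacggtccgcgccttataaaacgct
Wnt5b: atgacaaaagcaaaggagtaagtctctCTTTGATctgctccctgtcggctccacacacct
The motif begins 51 bases before the listed start of Wnt11 and 71 bases before that of Wnt5b. A match is a description of the letters only, and no measurement of binding was part of these data.

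Of the Wnt genes bright enough to be counted, all but Sfrp4 differed by less than 1.5-fold between Oma1-deficient and control fat. Sfrp4, a secreted Wnt-binding protein, was 1.71-fold brighter in the Oma1-deficient array. Sfrp5, another secreted Wnt-binding protein made by adipocytes, and the ligands Wnt5a and Wnt2b were dimmer by 1.35-fold to 1.41-fold, and the ligand Wnt10a and the receptor Fzd1 were brighter by 1.37-fold and 1.27-fold. Each group had 1 array, so no test of the genotype was possible, no value has a replicate check, and the spread between animals is unknown. In tissue RNA, fewer cells of a type and less RNA per cell cannot be told apart.

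Values are the authors' linear intensities, and differences are log2(intensity + 1) in the Oma1-deficient array minus the same in the control array. A gene was counted as above the intensity filter if the mean of its log2 values in both arrays reached that of the median probe set, which read 83, and dimmer signals cannot be told from background here. Of the 51 members, 29 passed (56.9%, against 57.1% of all genes). Among these 29, the 1 member at least 1.5-fold higher was Sfrp4, a share of 3.45% where 1.23% of all 11394 genes above the filter were as much higher. None of the 29 was at least 1.5-fold lower, against 1.74% of all genes above the filter. By sign alone 15 were higher and 14 lower, so 51.7% were higher, where 36.6% of all genes above the filter were higher and 62.3% lower. Their median difference was 0.01, against -0.06 for all genes above the filter. These figures include Wnt11 and Wnt9b, which passed only through the Oma1-deficient array, where they read higher. Without this pair 13 of 27 were higher (48.1%), with a median of -0.06. Conversely, Fzd3 reached the filter intensity in the control array (88) but not in the Oma1-deficient array (60), and is not among the 29. The share over all genes was not recomputed for such a change of filter. The background moves with the scaling: the 1.5-fold split over all genes was 140 higher and 198 lower as deposited, 170 and 147 after quantile normalisation and 165 and 154 after loess, and the median over all genes became -0.01 under both.

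A yardstick for technical scatter came from the 545 genes above the filter with exactly 2 probe sets, whose difference varied between probe sets with an SD of 0.17 on the log2 scale. It says nothing about differences between animals or between hybridisations. Of the 29 members above the filter, 12 differed by no more than this SD (41.4%, against 59.0% of all genes above the filter). Another 6 differed by more than 2 such SDs, a bound of 0.34 (20.7%, against 13.1% of all genes above the filter). The shares over all genes were not matched to the members for intensity. The 6 past 2 SDs were Sfrp4, Wnt10a and Fzd1 on the higher side and Wnt5a, Sfrp5 and Wnt2b on the lower side. The plot of intensities by gene shows both readings of all 29.

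**Figure D1:**
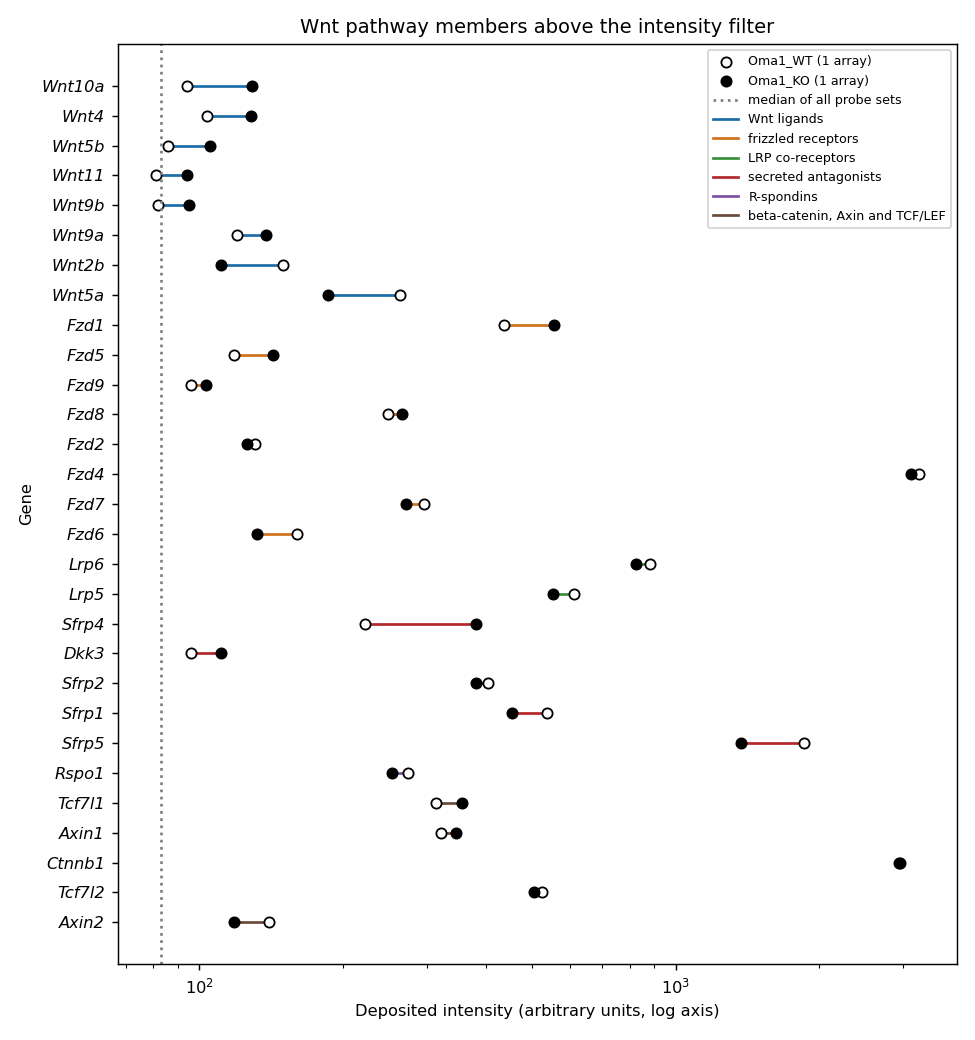
Deposited intensity (log axis) of the 29 members above the intensity filter in the Oma1_WT array (open points) and the Oma1_KO array (filled points), with lines coloured by role and the dotted line at the median of all probe sets, 83. The longest line is that of Sfrp4, from 223 to 381, and Ctnnb1 at 2938 and 2950 has nearly coinciding points.

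Of the 8 ligands above the filter, 6 were higher and 2 lower, with a median difference of 0.21, where 36.6% of all genes above the filter were higher. That share is not matched for intensity. Wnt10a, Wnt4, Wnt5b, Wnt11 and Wnt9b, all higher, had mean intensities between 38.9 and 119.0, where 58.7% of all genes were higher. Wnt9a, Wnt2b and Wnt5a lay between 119.0 and 389.4, where 34.8% were. Without Wnt11 and Wnt9b the split was 4 and 2, with a median of 0.24. Wnt5a, a ligand known mainly for signalling without beta-catenin and for a link to inflammation in obese fat, read 263 in the control array and 186 in the other (-0.50), and 355 of the 11394 genes above the filter had a still lower difference. Wnt2b, a ligand of the beta-catenin branch, read 150 and 111 (-0.43). Both ligands were thus the lowest of the 19.

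Wnt10a, a close relative of the adipogenesis inhibitor Wnt10b, read 94 and 129, a difference of 0.45, and 250 genes above the filter had a still higher one. Wnt4 read 103.5 and 128 as the mean of its 2 probe sets (0.33), and the probe sets went the same way, with 56 and 74 in one (0.40) and 151 and 182 in the other (0.27). It was the only member with more than 1 probe set. Wnt5b, a relative of Wnt5a, read 86 and 105 (0.28).

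The other 3 ligands above the filter lay close together. Wnt11, a ligand of the branch without beta-catenin, read 81 and 94 (0.21), Wnt9b 82 and 95 (0.21) and Wnt9a 120 and 138 (0.20). Wnt11 and Wnt9b were under the filter intensity in the control array.

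The remaining 11 ligands were below the filter, with intensities from 28 to 78 in control and from 33 to 77 in Oma1-deficient fat. Wnt1, Wnt2, Wnt3, Wnt3a, Wnt6, Wnt7a, Wnt7b, Wnt8a and Wnt16 were higher, by 0.12 to 0.35, and Wnt8b and Wnt10b were lower, by -0.03 and -0.02. Of all genes below the filter, 60.7% were higher. Wnt10b, the ligand best known for restraining adipocyte formation, read 78 and 77. At these intensities the array does not show whether the ligands were expressed in this tissue.

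Of the ligand genes, 8 form 4 pairs that lie next to each other in the RefSeq annotation with no other protein-coding gene between their starts. Wnt6 and its neighbour Wnt10a differed by 0.31 and 0.45, Wnt3a and Wnt9a by 0.29 and 0.20, and Wnt9b and Wnt3 by 0.21 and 0.15. In the fourth pair, Wnt10b and Wnt1, the differences were -0.02 and 0.35. Neighbours had the same sign in 3 of 4 pairs, and 5 of the 8 genes were below the filter. Since 15 of all 19 ligands were higher, where 46.9% of all genes were, a shared sign is common among ligands whether or not they are neighbours. The share over neighbouring genes at large was not computed, so the count is no result about neighbours.

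The frizzled receptors, the seven-pass membrane proteins that bind Wnts, divided evenly, with 5 of 10 higher and 5 lower and a median of 0.02. Above the filter, 4 of 8 were higher, where 36.6% of all genes were, a share not matched for intensity. Fzd1 read 436 and 556, a difference of 0.35, the highest of the family. Fzd5 read 118 and 143 (0.28), and Fzd6, a receptor of planar cell polarity, went the other way at 160 and 132 (-0.28). Fzd4, which also serves as the receptor for norrin in blood vessels of the retina, read 3243 and 3114 (-0.06).

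The other receptors above the filter were within the SD between probe sets. Fzd9 read 96 and 103 (0.10) and Fzd8 249 and 266 (0.09). Fzd2 read 131 and 126 (-0.06), and Fzd7 296 and 271 (-0.13). Fzd3, a receptor of axon guidance, had the lowest difference of all 51 members, at 88 and 60 (-0.54, or 1.46-fold), but its mean lay below the filter, so that the size is uncertain. Fzd10 (35 and 38) and the RNA of its opposite strand, Fzd10os (28 and 34), were also below it.

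Both LRP co-receptors were slightly lower. Lrp5 read 610 and 552 (-0.14), and Lrp6 881 and 824 (-0.10), each by less than the SD between probe sets. Of the R-spondins, only Rspo1 was above the filter, at 274 and 254 (-0.11). Rspo3 read 66 and 72, while Rspo2 read 27 and Rspo4 42 in both arrays.

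The secreted antagonists held the highest difference and differed in sign among themselves. Sfrp4 read 223 in the control array and 381 in the other, and its difference of 0.77 was 4.54 times the SD between probe sets, and 72 of the 11394 genes above the filter had a higher difference. Sfrp4 is known to be secreted by fat and to be raised in obesity and type 2 diabetes. Its probe set was the only one for the gene, so a second probe set could not be compared.

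The other Sfrp genes were all lower. Sfrp5, an adipokine known to bind Wnt5a, read 1854 and 1372, a difference of -0.43, and 543 genes above the filter had a still lower one. Sfrp1 read 536 and 454 (-0.24) and Sfrp2 404 and 380 (-0.09). Sfrp5 and its partner ligand Wnt5a were therefore both lower in the Oma1-deficient array, and Sfrp4 stood alone among the 4 Sfrp genes on the higher side.

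The Dkk genes all read higher, from 0.21 to 0.30, but 3 of the 4 were below the filter. All 4 had mean intensities between 38.9 and 119.0, where 58.7% of all genes were higher. Dkk3, a divergent member that does not bind the LRP co-receptors as the others do, was above it at 96 and 111 (0.21). Dkk1 read 55 and 68 (0.30), Dkk2 47 and 57 (0.27) and Dkk4 43 and 51 (0.24). Wif1, also below the filter, read 66 and 74 (0.16).

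The 5 intracellular members above the filter differed by -0.24 to 0.18, 3 of them higher and 2 lower. Ctnnb1, which encodes beta-catenin, read 2938 and 2950 (0.01). Tcf7l2, a main nuclear partner of beta-catenin, read 524 and 503 (-0.06), and its relative Tcf7l1, which mostly represses, 314 and 355 (0.18). Lef1, of the same family, was below the filter at 53 and 55.

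Axin1, the scaffold of the complex that degrades beta-catenin, read 322 and 346 (0.10). Axin2, a scaffold that is itself a target gene of beta-catenin, read 140 and 118 (-0.24), which is 1.44 times the SD between probe sets. Transcript levels do not measure the amount or the location of the beta-catenin protein. The plot of differences by role sets these members beside the ligands, receptors and antagonists.

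**Figure D2:**
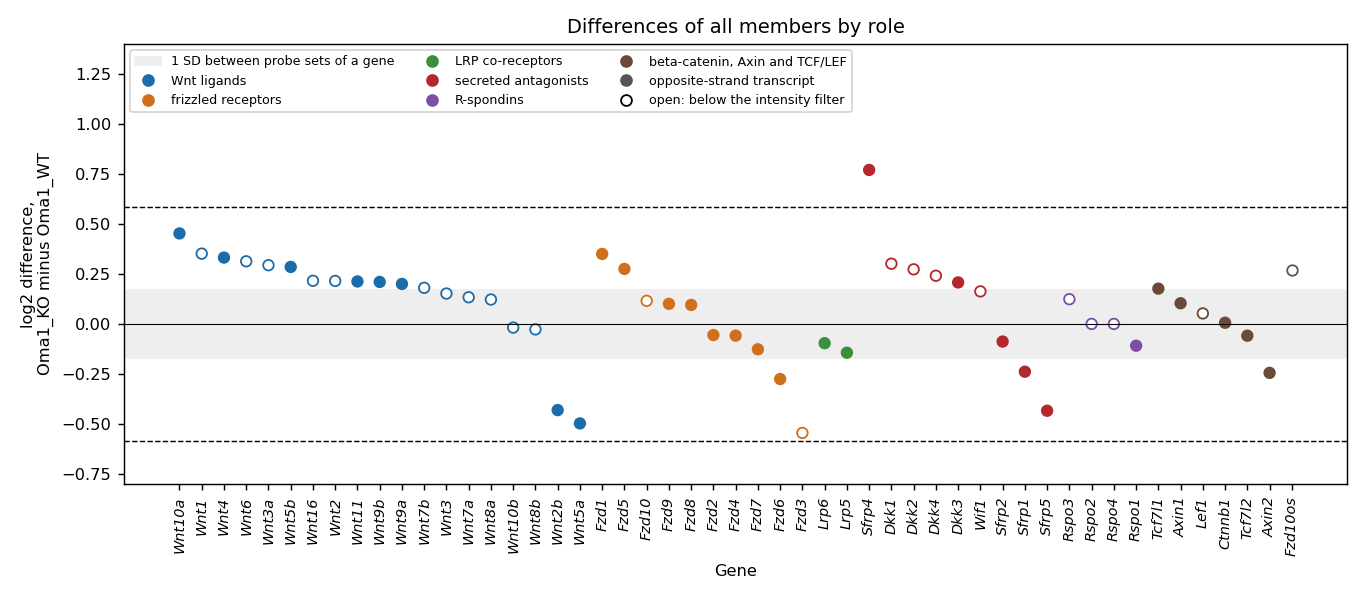
log2 difference (Oma1_KO minus Oma1_WT, 1 array each) of all 51 members, coloured by role and ordered within each role. Open points are below the intensity filter, the grey band is 1 SD between probe sets of a gene (0.17), and the dashed lines mark 1.5-fold; Sfrp4 at 0.77 is the single point beyond them.

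The sign of the differences followed intensity. The 22 members below the filter had a median of 0.16, and 17 of them were higher and 3 lower, while 60.7% of all 8544 genes below the filter were higher, with a median of 0.07. When all genes were split by mean intensity into 4 bins of equal size, bin 2, counted from the dimmest, held 20 members, of which 16 were higher (median 0.21), where 58.7% of all 4984 genes in it were higher (median 0.06). In bin 4, the brightest, 2 of 9 members were higher (median -0.09), where 34.1% of all genes were (median -0.06). Dim members were thus on the same side as dim genes at large, with a larger median. The cause was not tested.

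**Figure D3:**
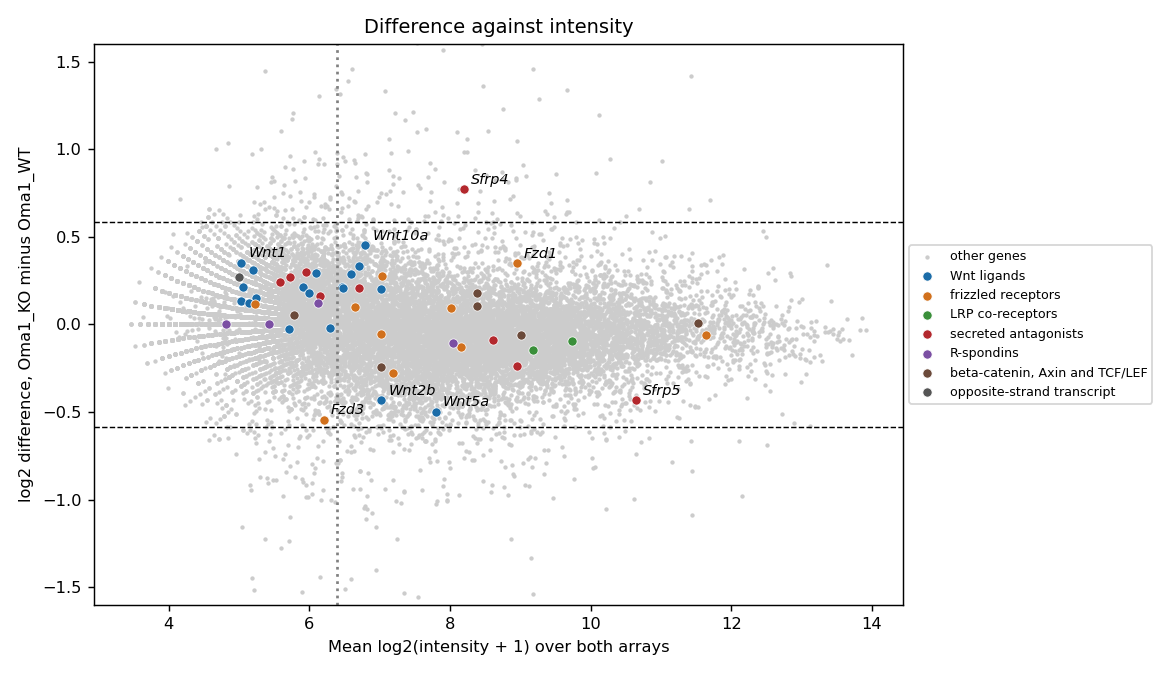
log2 difference (Oma1_KO minus Oma1_WT) against the mean log2(intensity + 1) over both arrays for all genes (grey) and the 51 members (coloured by role), with the filter as a dotted line and 1.5-fold as dashed lines; 15 genes lie outside the axis limits of 1.6. Named members differ by more than 0.34; most points left of the filter lie above 0, and Sfrp4 is the only member beyond a dashed line.

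Other genes of the pathway were taken from 8 lists, which together held 117 measured genes, 88 of them above the filter. Of these 88, 28 were higher and 60 lower with a median of -0.08, where all genes above the filter had a median of -0.06. The 60 are a share of 68.2%, against 62.3% of all genes above the filter. Differences of 1.5-fold or more were found in 4 of the 88, each lower (4.55%, against 1.74% of all genes), and in 0 higher (against 1.23%). The lists were chosen with earlier results of these data known, so these shares describe the lists and test nothing. Gpc3, a glypican of the cell surface that binds Wnts and other ligands, read 603 and 316 (-0.93). Apcdd1, a membrane protein that inhibits Wnt signalling and is also a target gene, read 1297 and 826 (-0.65). The transcription factors Sox17, of endothelium, and Sox9, of progenitor cells and cartilage, which both bind beta-catenin, read 242 and 154 (-0.65) and 251 and 158 (-0.66).

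By list, secretion and processing of Wnts had 3 genes higher and 5 lower above the filter, with Gpc3 the only one past 1.5-fold. Other surface receptors had 4 higher and 7 lower, with Vangl1, a planar polarity protein, at 240 and 179 (-0.42) and Lgr4, a receptor for R-spondins, at 784 and 606 (-0.37). In the list named receptor turnover, all 4 genes above the filter (Znrf3, Tspan12, Cav1 and Usp6nl) were lower, where 62.3% of all genes above it were. Usp6nl read 300 and 253 (-0.24) and Tspan12 989 and 866 (-0.19). The list is wider than its name, since Tspan12 assists Fzd4. The list named other secreted antagonists had 2 higher and 2 lower above the filter. It too is wider than its name, since it holds the membrane protein Apcdd1, its only gene past 1.5-fold.

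Dishevelled and planar polarity genes above the filter were 5 higher and 7 lower, among them Invs at 197 and 261 (0.40) and Nkd1, an inhibitor of Dishevelled, at 752 and 587 (-0.36). The beta-catenin destruction complex had 4 higher and 10 lower, from -0.24 to 0.12, with the tankyrase Tnks at 628 and 533 (-0.24) and the deubiquitinase Usp34 at 643 and 548 (-0.23). Nuclear cofactors had 5 higher and 16 lower, with Sox9 and Sox17 past 1.5-fold. Of 17 transcriptional targets above the filter, 5 were higher and 12 lower (70.6%, where 62.3% of all genes above the filter were lower), with a median of -0.16 and Apcdd1 alone past 1.5-fold. Apcdd1, Nkd1 and Znrf3 were counted in other lists too. Below the filter, Mmp7, a matrix protease, read 116 and 42 (-1.44).

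The adipose label was checked against adipocyte markers, of which all 16 were above the filter, with 3 higher and 13 lower, from Acvr1c (-0.75) to Cebpa (0.08). The 13 are 81.25%, where 62.3% of all genes above the filter were lower. Their summed intensity over all 16 was 85055 in control and 75588 in Oma1-deficient fat. The Oma1 probe set read 187 and 155 (-0.27), and since the disrupted part of the gene is not stated, it does not check the genotype. Markers of other cell types were read against the 62.3% of all genes above the filter that were lower and the 36.6% that were higher. Their counts include markers below the filter, 1 mesothelial, 1 hepatocyte, 2 T cell and 4 B cell. Below the filter, 28.6% of all genes were lower and 60.7% higher. Mesothelial markers were lower in 10 of 11 (sum 3641 and 2727), from Upk3b (-0.76) to Wt1 (0.26). Endothelial markers were lower in 11 of 12 (sum 14517 and 11699), from Robo4 (-0.65) to Eng (0.12). Smooth muscle and pericyte markers were higher in 6 of 10 (sum 7997 and 8500), from Notch3 (-0.32) to Cnn1 (1.06). Macrophage markers were higher in 11 of 12 (sum 34109 and 40589), from Cd163 (-0.39) to Fcgr1 (0.71). Hepatocyte markers were higher in 9 of 10 (sum 3799.5 and 8560.5), from Tat (-0.31) to Apoa1 (1.83). Fibroblast and progenitor markers were lower in 6 of 9 (sum 15411 and 15325), from Dpp4 (-0.55) to Lum (0.36), a share of 66.7% that is near that of all genes. T cell markers were lower in 7 of 9 (sum 1809 and 1683), from Cd3e (-0.22) to Cd8b1 (-0.07) among those above the filter, with Cd3d (0.28) and Cd4 (0.04) below it, and B cell markers in 8 of 8 (sum 1081 and 790), from Cd79a (-1.11) to Cd22 (-0.09). No marker was at 0, as the lowest intensity of either array was 8. The part of these cell types in the Wnt gene differences was not tested.

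**Figure D4:**
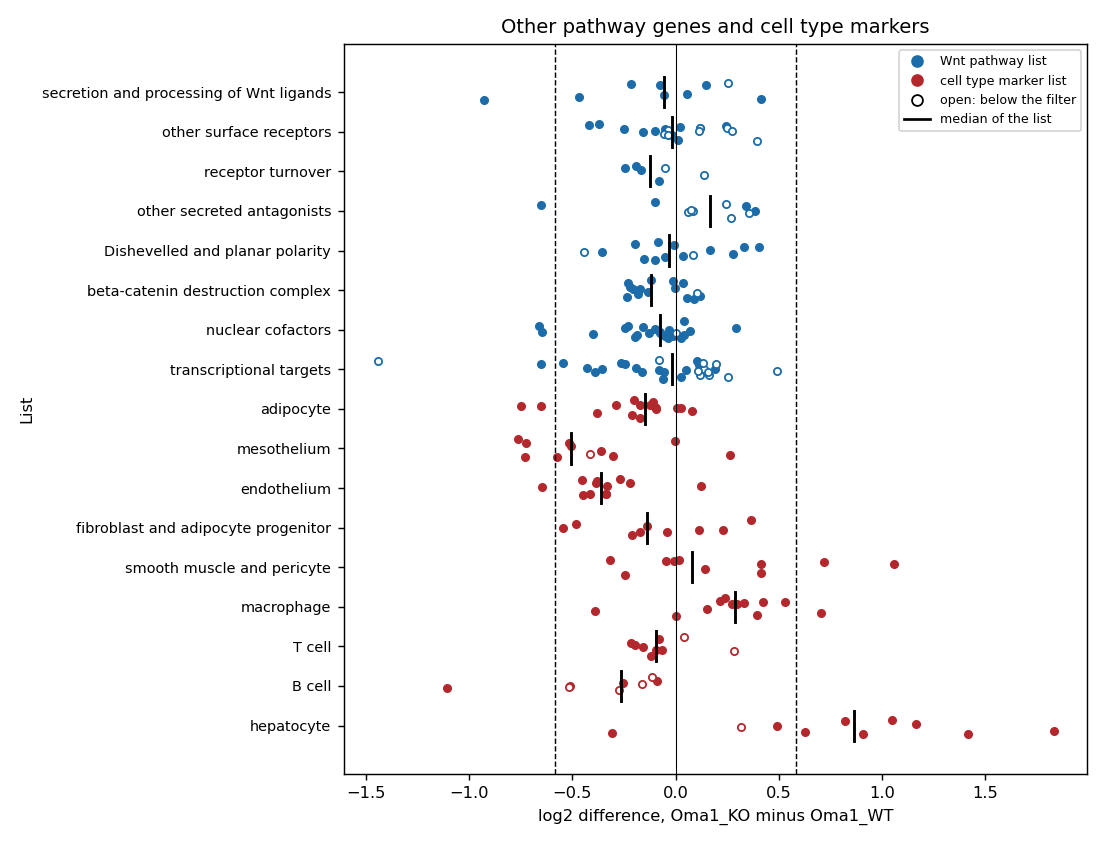
log2 difference (Oma1_KO minus Oma1_WT) of the genes in 8 Wnt pathway lists (blue) and 9 cell type marker lists (red), 1 point a gene, open where below the filter, with the median of each list as a black bar and 1.5-fold as dashed lines. Over all genes of a list, those below the filter included, the endothelial median is -0.36, the mesothelial -0.51 and the hepatocyte 0.87. The pathway list medians lie between -0.12 and 0.17 on the same basis.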

How the data were processed

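RNA was isolated with Trizol, labelled with biotin and read on Mouse Gene 1.0 ST arrays of Affymetrix, per the labels. The authors deposited 1 linear intensity per probe set and array as whole numbers. Which software, background correction and scaling they used is not stated in those sources. Intensities ran from 8 to 21365 with a median of 83 in both arrays over 35512 probe sets, and rounding makes dim values coarse.

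Probe sets with 1 symbol in GEO's platform annotation (21789) were kept and averaged per gene after log2(intensity + 1), which understates differences of dim genes. All 51 members matched RefSeq (GRCm38.p6) by gene identifier and symbol. With 1 array per group no p-value was computed. The number of arrays limits the precision. The members and lists were chosen with earlier results of these data known. All members are named. Of each pathway list, genes past 1.5-fold above the filter are named, or otherwise the 2 with the largest difference, and of each marker list the highest and lowest above the filter; Mmp7 was chosen after its value was seen. Alternatives were quantile normalisation, loess (span 0.3), centring, the brightest probe set, a pseudocount of 16 and other filters. The procedure was tested on simulated data. Python 3.11.15, numpy 2.4.6, pandas 2.3.3, statsmodels 0.14.6 and matplotlib 3.10.9 were used.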

Additional observations from a re-analysis of the deposited data

How the results depend on the processing

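With 1 array per group, no array could be left out and no paired analysis was possible because each group has 1 sample. All alternatives were planned. Centring subtracted 0 and tested nothing. Taking the brightest probe set could change only Wnt4 among the members, since each other member, Sfrp4 included, had 1 probe set. Sfrp4 stayed past 1.5-fold under quantile normalisation and loess (0.84 in both) and with a pseudocount of 16 (0.73). Over the deposited values and these alternatives, Wnt5a ranged from -0.50 to -0.44, Sfrp5 from -0.43 to -0.39, Wnt2b from -0.43 to -0.39, Wnt10a from 0.40 to 0.47 and Fzd1 from 0.34 to 0.42. Only Tcf7l2 (0.01 after loess) and Lef1 (-0.01 after loess) changed sign, and Rspo2 and Rspo4, equal as deposited, were lower by up to 0.07 after quantile normalisation and loess. Fzd3 passed 1.5-fold only after loess (-0.59) and was below the filter. With the filter at the upper quartile, an intensity of 326, 11 members were left (4 higher, 7 lower), of which 0 reached 1.5-fold, since Sfrp4 no longer passed. With no filter 32 members were higher, and the median of the secreted antagonists was 0.21 in place of -0.09, as Dkk1, Dkk2, Dkk4 and Wif1 entered. The median of all 51 members, 0.12, became 0.10 after quantile normalisation and 0.08 after loess. At the upper quartile no ligand or R-spondin was left. List medians were recomputed only over all genes of a list, those below the filter included. On that basis the Dishevelled, surface receptor and target lists had -0.03, -0.02 and -0.02 as deposited. They turned positive after quantile normalisation (0.02, 0.02 and 0.04) and loess (0.02, 0.03 and 0.03). The median of -0.16 for the targets above the filter was not recomputed.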
